A study of Homo sapiens with 12 samples.

Results

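Actinomycin D at a low dose was set against no treatment in CCRF-CEM, a line grown from a human T-cell acute lymphoblastic leukaemia, and mRNA levels were compared over all measured genes. The comparison used 6 of the 12 arrays of the series, chosen by their titles: 3 of cells given 1 nM actinomycin D for 3 h, which is 5 times the IC50, and 3 of non-treated cells. The other 6 arrays, 3 of cells given 250 nM AB61 and 3 of cells given 550 nM tubercidin for the same 3 h and at the same multiple of the IC50, shared the estimate of the spread and served for direct contrasts. All groups grew in RPMI with 10% serum and antibiotics, and each array is titled as a separate biological replicate. No vehicle is described for the non-treated cells, so the effects of the drug and of a vehicle cannot be told apart. Levels are log2 RMA values, a scale on which a difference of 1 is a 2-fold change, and 14232 genes each had a probe set that carried their symbol alone.

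Actinomycin D binds guanine- and cytosine-rich double-stranded DNA and blocks RNA polymerases as they move along it. At low concentrations the synthesis of ribosomal RNA by RNA polymerase I is the most sensitive step, and transcription of protein-coding genes is affected less. When synthesis of an mRNA stops, its level falls at a pace set by its half-life, so transcripts that turn over fast, such as those of immediate early genes, are the first in which a fall can be seen. CCRF-CEM cells carry an active NOTCH1 pathway.

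The arrays of the 6 cultures were alike, with correlations between 0.9865 and 0.9942 and median levels between 6.586 and 6.68. Correlations within a group (0.9882 to 0.9942) overlapped those between the groups (0.9865 to 0.9923). Between replicates the SD of a gene had a median of 0.111 after actinomycin D and 0.13 in control. Of 20 T-lymphoblast markers, 19 were measured, at control levels between 5.15 and 12.4 with CD3D at the top, and none of them passed the test. Markers of B cells (5 measured), myeloid cells (6), erythroid cells (3), epithelial cells (5) and fibroblasts (5) did not pass it either. Among these CD79A, CD79B, BLK and KLF1 had control levels between 6.73 and 7.46, above the median gene, and KRT8, an epithelial keratin gene, was bright, at 9.65 ± 0.12 after actinomycin D and 9.73 ± 0.08 in control (SD, n = 3 each). RMA brings the arrays to one distribution, so that a fall shared by every mRNA would leave no trace here.

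Few genes passed the test, which does not show that few differed. An unadjusted limma p below 0.05 was found for 1336 genes (9.39%). At an adjusted p of 0.05 (limma, Benjamini-Hochberg over all genes), 17 of 14232 genes passed, 0.119% of those tested. Of these 17, 9 were higher (0.0632%) and 8 lower (0.0562%) after actinomycin D. Their adjusted p-values lay between 0.00222 and 0.0492, and 3 of them changed at least 2-fold. The middle 95% of all log2 fold changes lay between -0.41 and 0.394, with a median of 0.00238. Beyond 1 log2 unit there were 4 genes higher and 13 lower, and beyond 0.5 there were 145 higher and 191 lower. In 1029 genes (7.23%) all 3 actinomycin D arrays lay above all 3 control arrays, and in 1027 (7.22%) they lay below them, so full separation of the arrays was equally common in both directions.

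The number of genes that passed rested on single arrays. It was 1 without actinomycin D replicate 1, 1 without replicate 2 and 4 without replicate 3. Leaving out control replicate 1 gave 25 genes, of which 8 were among the 17, and leaving out control replicate 2 or 3 gave 1. In the fit of this comparison, the AB61 and tubercidin arrays enter only the estimate of the spread. Their replicate SD of a gene had a median of 0.19 for AB61 and 0.127 for tubercidin. The count was 4 without AB61 replicate 1, 3 without replicate 2 and 20 without replicate 3, and for tubercidin it was 3, 18 and 3 in the same order. CHRNA6 passed whichever array was left out. The number rose to 130 with the replicate number as a block in all 12 arrays and to 465 with gene-by-gene array weights. Both kept all 17 genes. When each array was centred on its cytosolic ribosomal protein genes, which moved the median of all genes to 0.06, the split of 9 higher and 8 lower became 4 higher and 7 lower, and 3 of the 17 genes were kept.

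**Figure D1:**
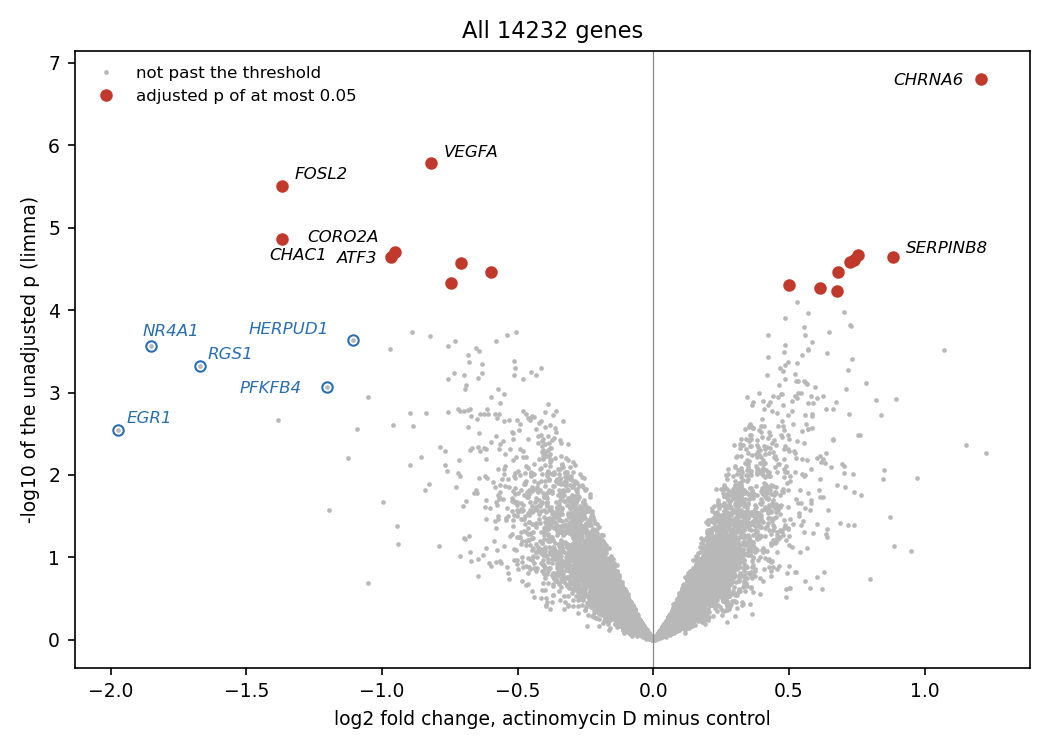
Log2 fold change of actinomycin D minus control (x axis) against the -log10 of the unadjusted limma p (y axis) for 14232 genes. Filled red points are the 17 genes past an adjusted p of 0.05, 9 to the right of 0 and 8 to the left, and open blue circles mark 5 genes with large negative values that did not pass.

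The lower genes included 3 of the basic leucine zipper family, whose products bind DNA as dimers at AP-1, CRE or C/EBP sites. FOSL2 (Fra-2, a partner of JUN proteins in AP-1) stood at log2 levels of 7.78, 7.93 and 8.03 on the actinomycin D arrays, against 8.83, 9.44 and 9.58 on the control arrays. All treated arrays lay well below the lowest control array, a difference of -1.37 (SE 0.18, 95% interval -1.75 to -0.99, adjusted p = 0.0146). ATF3, a stress-induced repressor and activator of the same family, had levels of 6.69, 6.90 and 7.11 after actinomycin D, against 7.58, 7.94 and 8.08 in control. The groups did not overlap, and the difference was -0.97 (SE 0.15). CEBPB, a transcription factor of inflammation and differentiation, was at 7.42, 7.39 and 7.27 after actinomycin D and at 7.88, 7.91 and 8.08 in control. Its change was smaller, -0.60 (SE 0.10), with every treated array below every control array.

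CHAC1 encodes a glutathione-degrading gamma-glutamylcyclotransferase and is a target of ATF4, ATF3 and CEBPB in the integrated stress response, the pathway that couples amino acid shortage and unfolded proteins to transcription. Its levels were 6.77, 6.62 and 7.14 on the actinomycin D arrays, against 7.83, 8.14 and 8.66 on the control arrays. CHAC1 fell by as much as FOSL2 (-1.37, SE 0.20, 95% interval -1.81 to -0.93), and its groups did not overlap either. Upstream of its start lies a C/EBP-ATF response element, the composite site that ATF4 binds with a C/EBP partner. The same letters lie upstream of HERPUD1, a gene of protein degradation at the endoplasmic reticulum. HERPUD1 had levels of 8.78, 9.17 and 9.56 after actinomycin D, against 9.89, 10.21 and 10.75 in control. Its arrays separated fully as well, but its change of -1.11 (SE 0.22) did not pass (adjusted p = 0.0983). The 2 stretches are shown because they carry the same 8 letters in genes that stood more than 1 log2 unit lower. Both are RefSeq sequences of GRCh38.p14 on the plus strand, chr15:40953221-40953320 for CHAC1 and chr16:56931892-56931991 for HERPUD1, and capitals mark the element, a match to TGATGNAA on the other strand:
CHAC1: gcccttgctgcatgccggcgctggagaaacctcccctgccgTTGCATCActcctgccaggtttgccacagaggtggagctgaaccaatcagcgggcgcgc
HERPUD1: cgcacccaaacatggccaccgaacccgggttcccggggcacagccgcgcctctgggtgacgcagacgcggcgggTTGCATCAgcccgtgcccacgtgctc

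The element was searched as TGATGNAA on both strands of the 250 bases before each start, in the 11386 of 14232 genes with a promoter sequence. It was present for 3.03% of these genes and for 2 of the 7 lower genes with a sequence, CHAC1 and ATF3. Among ATF4 and integrated stress response genes it was present for 9 of 35 (25.7%), and the log2 fold changes of these 9 ran from -1.37 for CHAC1 to 0.12 for ASNS, the asparagine synthetase gene. In 4 of the 9 (CHAC1, ATF3, AARS1 and CEBPG) the arrays separated downward, against 7.22% of all genes and 31.6% of the whole list. In the other 5 they overlapped, with log2 fold changes from -0.002 for GARS1 to 0.12 for ASNS. Whether the element plays a part was not tested.

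The other 4 lower genes have varied roles. VEGFA, whose product makes blood vessels sprout, had levels of 6.51, 6.45 and 6.54 after actinomycin D, against 7.25, 7.28 and 7.42 in control. Both groups were tight and far apart (-0.82, SE 0.10, adjusted p = 0.0118). CORO2A, which encodes a coronin that binds actin, was at 7.17, 7.05 and 7.31 after actinomycin D, against 7.83, 8.07 and 8.48 in control, and fell by 0.95 (SE 0.15). EFNB2, the gene of the membrane ligand ephrin-B2, was at 6.42, 6.56 and 6.69 after actinomycin D, against 7.21, 7.14 and 7.45 in control, and fell by 0.71 (SE 0.11). MBD5, a methyl-CpG-binding domain gene, fell by 0.75 (SE 0.12), with its treated arrays between 6.10 and 6.39 and its control arrays between 6.87 and 7.14.

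CHRNA6, which encodes the alpha-6 subunit of nicotinic acetylcholine receptors, was the gene with the lowest p. Its levels were 7.44, 7.59 and 7.34 on the actinomycin D arrays, against 6.29, 6.30 and 6.15 on the control arrays. The gap between the groups was several times the range within either (1.21, SE 0.12, 95% interval 0.95 to 1.46, adjusted p = 0.00222). It passed in each of the 25 alternative settings, including the fit of these 6 arrays alone, where it was the only gene. SERPINB8, a gene of an intracellular serine protease inhibitor, had levels of 8.42, 8.71 and 8.84 after actinomycin D, against 7.84, 7.68 and 7.80 in control (0.88, SE 0.14), again without overlap.

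SERPINB8 was the one higher gene of the 7 with a promoter sequence in which AP-1 sites (TGANTCA, both strands) were found, and these letters lie in the 250 bases before the start of 7.01% of genes. It holds 2 such sites, and the stretch nearest to the start is shown because FOSL2 encodes an AP-1 subunit. The sequence is that of RefSeq on GRCh38.p14, chr18:63969961-63970080 on the plus strand, ending at the base before the start, with the site in capitals:
SERPINB8: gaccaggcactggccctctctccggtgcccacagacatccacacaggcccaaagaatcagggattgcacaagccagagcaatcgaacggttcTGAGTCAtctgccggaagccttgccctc

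The higher genes also included regulators of RNA decay, DNA repair and membranes. DCP1B, a cofactor of the mRNA decapping enzyme, was at 7.65, 7.53 and 7.39 after actinomycin D, against 6.90, 6.87 and 6.77 in control (0.68, SE 0.12). FANCF, a subunit of the Fanconi anaemia core complex for the repair of DNA crosslinks, was at 6.57, 6.69 and 6.48, against 6.01, 5.87 and 5.64 in control (0.74, SE 0.12). Neither gene's groups overlapped. ATP10D, a phospholipid flippase gene, rose by 0.68 (SE 0.11), PTGDR, a prostaglandin D2 receptor gene, by 0.62 (SE 0.10), and TTC8, a gene of the ciliary BBSome, by 0.50 (SE 0.08). The 3 treated values of TTC8 lay between 6.60 and 6.63, against 6.04 to 6.20 in control. ZNF583, a zinc finger gene, rose by 0.75 (SE 0.12), and the pseudogene CMAHP, once a sialic acid hydroxylase gene, rose to 7.81, 7.80 and 7.78, against 7.10, 7.01 and 7.10 in control.

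**Figure D2:**
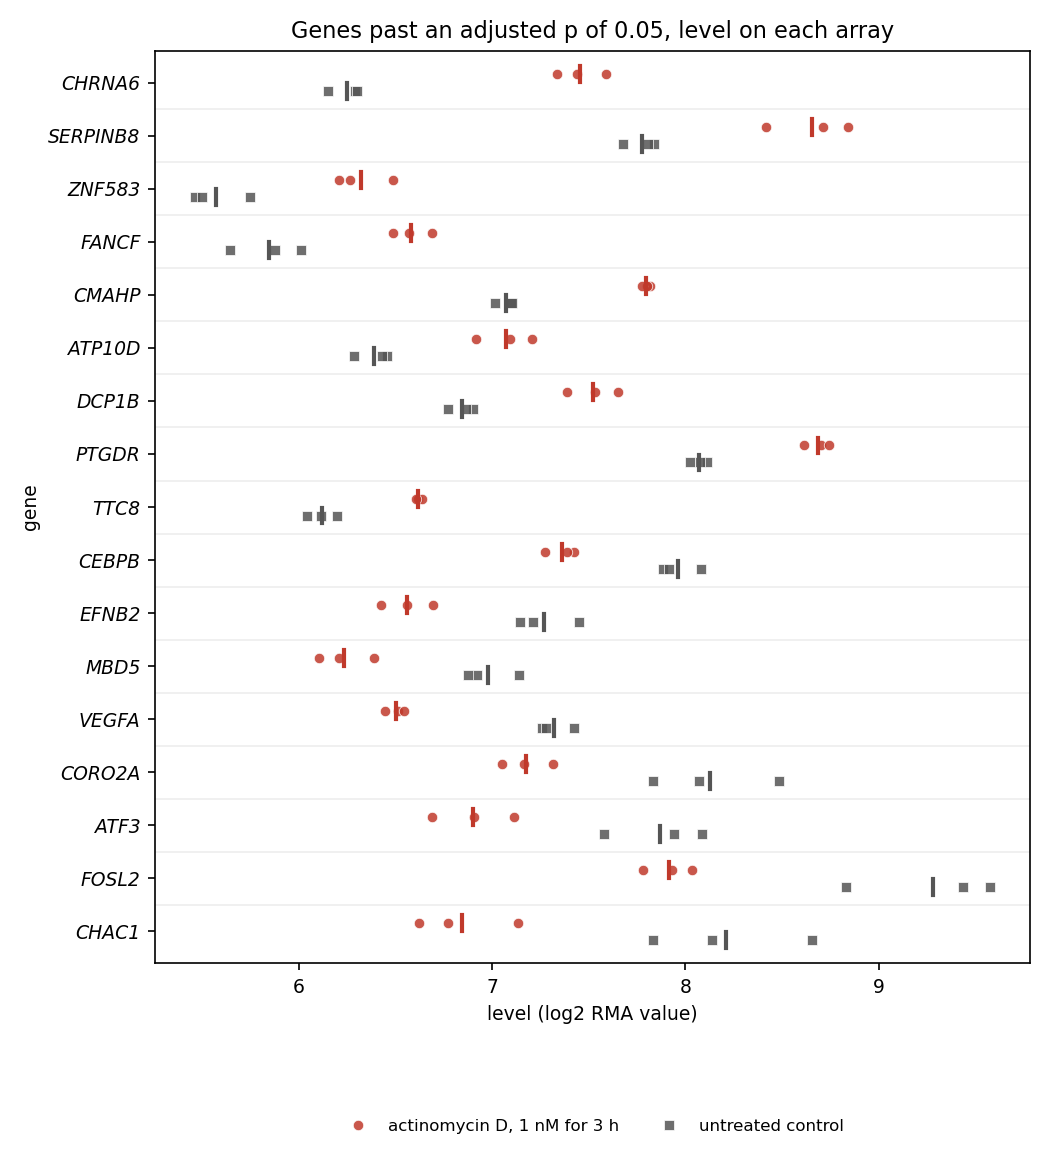
Log2 RMA level (x axis) of each of the 17 genes past an adjusted p of 0.05 (y axis) on the 3 actinomycin D arrays (red circles) and the 3 control arrays (grey squares), with vertical bars at the means. In every gene the groups are apart, and CHRNA6, FOSL2 and CHAC1 show the largest differences of means, 1.21, -1.37 and -1.37.

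The next 6 genes in each direction by p did not pass. In each, all 3 treated arrays lay on one side of all 3 control arrays, against 14.4% of all genes. They were chosen by p in this same comparison, so nothing is read from that separation. Above control stood DET1, an adaptor of a ubiquitin ligase (0.53), the transposon-derived gene TIGD4 (0.70), the potassium channel regulator gene KCNRG (0.57), LRRN1 (0.49), LANCL2 (0.72) and PDE7A, a cyclic AMP phosphodiesterase gene of T cells (0.73). Below it, beside HERPUD1, stood PFKFB3, whose product makes the activator of phosphofructokinase (-0.89), the adhesion gene SDK2 (-0.51), the T-cell receptor adaptor gene SKAP1 (-0.54), GKAP1 (-0.82) and LPCAT4, a lysophospholipid acyltransferase gene (-0.73). Outside these, and chosen after its values were seen, IL7R, the interleukin-7 receptor gene that T-cell precursors depend on, was at 8.15, 8.30 and 8.25 after actinomycin D, against 7.64, 7.01 and 6.82 in control (1.07, adjusted p = 0.101).

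Immediate early genes are switched on within minutes by growth and stress signals and encode short-lived mRNAs of transcription factors and their feedback regulators. Of 31 measured, 2 passed, FOSL2 and ATF3, both lower. In 9 (29%) all treated arrays lay below all control arrays, against 7.22% of all genes, and in 2 (6.45%) they lay above, against 7.23%. The median log2 fold change of the list was -0.28, against 0.00238 over all genes, with 24 members below 0 and 7 above. By array, the list median relative to the control mean was -0.32, -0.25 and -0.32 after actinomycin D and -0.29, 0.07 and 0.22 in control. Control replicate 1 was thus as low as the treated arrays, and in 25 of the 31 genes it was the lowest of the 3 control arrays. The difference between the control cultures was as wide as that between the groups, and its part in the result was not tested.

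EGR1 and NR4A1 had the most negative values of all genes. EGR1, a zinc finger factor induced through serum response factor, was at 6.81, 7.08 and 7.24 after actinomycin D, against 7.49, 8.85 and 10.69 in control. The treated arrays sat close together below a control group that spanned over 3 log2 units, and the difference of -1.97 (SE 0.54) did not pass (adjusted p = 0.209). Without control replicate 1 it was -2.73 and passed (adjusted p = 0.0147), and without control replicate 3 it was -1.14 and did not. NR4A1, an orphan nuclear receptor gene induced by T-cell receptor signals, was at 6.78, 6.69 and 7.06 after actinomycin D, against 7.72, 8.57 and 9.79 in control (-1.85, SE 0.37, adjusted p = 0.101). Of the 6 arrays, only control replicate 1 made it pass when left out, and the same held for EGR3, a relative of EGR1 (-1.05 with all arrays, -1.41 without that one). With ribosomal protein centring EGR1 and NR4A1 passed as well, at -1.92 and -1.79.

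The EGR1 promoter is shown because it holds a pair of CArG boxes, the sites of serum response factor, 105 and 83 bases before the start. CArG boxes, searched on both strands, lie in the 250 bases before the start of 1.65% of genes and of 2 of the 24 immediate early genes with a sequence, EGR1 and SRF, the factor's own gene (-0.28). The sequence is that of RefSeq on GRCh38.p14, chr5:138465359-138465478 on the plus strand, with the boxes in capitals:
EGR1: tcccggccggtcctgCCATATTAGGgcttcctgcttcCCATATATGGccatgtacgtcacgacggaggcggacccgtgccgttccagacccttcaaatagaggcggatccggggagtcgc

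Other regulators of this class stood lower by less, and none passed. FOS, the founding AP-1 partner of JUN, was at 6.32, 6.40 and 6.42 after actinomycin D, against 6.43, 6.80 and 7.16 in control (-0.42; -0.24 without control replicate 3). JUNB, an AP-1 subunit, was at 8.24, 8.09 and 7.57, against 8.21, 8.48 and 9.16 in control (-0.65; -0.38 without control replicate 3), and 1 treated array lay above the lowest control. JUN stood at -0.29 and IER2 at -0.34, with overlapping groups, and without control replicate 1 they were -0.44 and -0.53. Without control replicate 3 JUN was -0.18. MYC, on the other hand, ran from 9.40 to 10.52 after actinomycin D and from 8.86 to 10.36 in control, and its difference of 0.25 was smaller than the range within either group. DUSP and SPRY genes, feedback inhibitors of MAP kinase signalling that are induced with this class, had a median of -0.18, with 12 of 14 below 0, 3 separated downward (21.4%, against 7.22% of all genes) and none past the test. Leaving out control replicate 3 or 1 gave a median of -0.09 or -0.28, and DUSP6 and SPRY2 had the most negative values, -0.33 and -0.35, which were -0.18 and -0.11 without control replicate 3. Without control replicate 2 SPRY2 was -0.52.

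**Figure D3:**
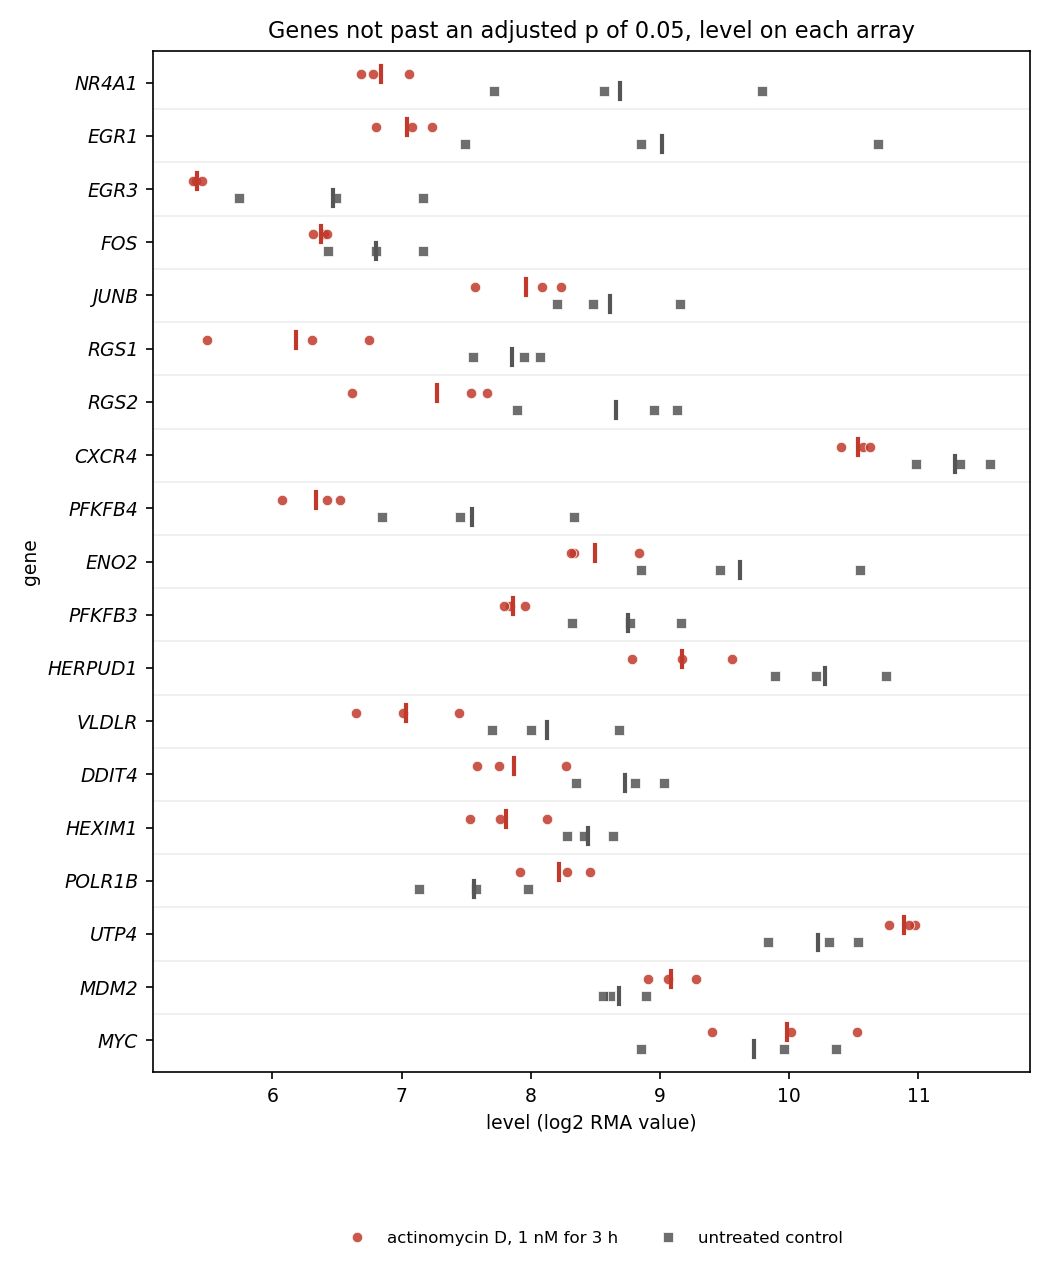
Log2 RMA level (x axis) of 19 genes (y axis) that did not pass, on the 3 actinomycin D arrays (red circles) and the 3 control arrays (grey squares), with vertical bars at the means. The control values of EGR1 span 7.49 to 10.69 while its treated values lie between 6.81 and 7.24, and the groups of MYC overlap.

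Of 38 ATF4 and integrated stress response genes, CHAC1, ATF3 and CEBPB passed, all lower. The arrays separated downward in 12 (31.6%, against 7.22% of all genes) and upward in 5 (13.2%, against 7.23%). The list median was -0.08, and leaving out control replicate 3 or 1 gave -0.16 or -0.05. VLDLR, a lipoprotein receptor gene that ATF4 induces under stress, stood at 6.65, 7.01 and 7.45 after actinomycin D, against values from 7.70 to 8.68 in control (-1.09, SE 0.30). DDIT4, an inhibitor of mTORC1, stood at 7.58, 7.76 and 8.27, against 8.35, 8.81 and 9.03 in control (-0.86, SE 0.26). Both separated fully without passing. ATF4 mRNA itself was at -0.10 with overlapping arrays, and its targets ASNS and TRIB3 were at 0.12 and 0.05. The subunits of one amino acid transporter, SLC3A2 and SLC7A5, picked after their values were seen, stood above control on every array, by 0.40 and 0.35 (adjusted p = 0.229 and 0.268).

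Genes of endoplasmic reticulum chaperones and the unfolded protein response had a median of -0.08, which was -0.13 without control replicate 3 and -0.13 without actinomycin D replicate 2. None of 18 passed, 3 (16.7%, against 7.22% of all genes) separated downward and 1 (5.56%, against 7.23%) upward. Beside HERPUD1, DNAJB9, a co-chaperone of BiP, was at 5.96, 6.41 and 6.30 after actinomycin D, against 6.63, 6.74 and 6.89 in control (-0.53). SEL1L, the partner of the HRD1 ubiquitin ligase, went the other way (0.48), and the BiP gene HSPA5 overlapped (-0.41), with -0.20 without actinomycin D replicate 1 and -0.63 without replicate 3. Heat shock proteins, the chaperones of the cytosol and mitochondria, had a median of -0.18 with 13 of 16 below 0 and none past the test. HSPE1, a mitochondrial chaperonin gene, stood at -0.57, and HSPA4L at -0.49, or -0.29 without control replicate 3.

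Glycolysis and hypoxia-type genes, which hypoxia-inducible factor turns on, stood lower almost without exception. Of 25 measured, 24 were below 0, with a median of -0.25, and VEGFA passed. In 7 (28%, against 7.22% of all genes) the arrays separated downward and in none upward. The list median by array was -0.30, -0.24 and -0.17 after actinomycin D and -0.08, -0.04 and 0.15 in control, so the groups did not overlap. Leaving out any one array kept it between -0.31 and -0.18. PFKFB4, which like PFKFB3 sets the level of fructose 2,6-bisphosphate, was at 6.07, 6.43 and 6.52 after actinomycin D, against 6.85, 7.45 and 8.34 in control (-1.20, SE 0.28, adjusted p = 0.145). PFKFB3 was at 7.84, 7.79 and 7.95, against 8.32, 8.76 and 9.17 in control (-0.89, SE 0.17, adjusted p = 0.095). Both passed without control replicate 1, at -1.55 for PFKFB4 and -1.104 for PFKFB3. ENO2, an enolase gene, stood at -1.13, and at -0.66 without control replicate 3.

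RGS proteins switch off G protein signals, among them those of the chemokine receptors that steer lymphocytes. Of 18 such genes 5 separated downward (27.8%, against 7.22% of all genes) and 2 upward (11.1%, against 7.23%), 0 passed, and the median was -0.01, so a few large values stood beside many near 0. RGS1 was at 5.50, 6.31 and 6.75 after actinomycin D, against 7.55, 7.95 and 8.07 in control (-1.67, SE 0.36, adjusted p = 0.118). RGS2 was at 6.62, 7.54 and 7.66, against 7.89, 8.95 and 9.13 in control (-1.38, SE 0.36). CXCR4, the receptor of CXCL12, was at 10.40, 10.57 and 10.62, against 10.98, 11.32 and 11.55 in control (-0.76, SE 0.15, adjusted p = 0.101). In each of these the groups were apart, and CXCR4 passed without control replicate 1 (-0.91). S1PR1, a receptor for exit from lymphoid organs, stood at -0.64.

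RNA polymerase I makes the precursor of ribosomal RNA, and the genes of its subunits and factors showed no common direction at the mRNA level. None of 17 passed, 2 separated downward (11.8%, against 7.22% of all genes) and 0 upward, and the median was -0.05. It was 0.01 with ribosomal protein centring, 0.05 without control replicate 1, -0.10 without control replicate 3 and -0.11 without actinomycin D replicate 1. POLR1A, the gene of the largest subunit, was at 0.05 with overlapping arrays. POLR1B, the gene of the second largest, was at 8.46, 8.28 and 7.92 after actinomycin D, against 7.98, 7.14 and 7.58 in control (0.65, SE 0.21, adjusted p = 0.308), and its lowest treated array lay just below the highest control. Nucleolar genes of ribosome biogenesis had 24 of 38 members above 0 and a median of 0.05, with 5 (13.2%, against 7.23% of all genes) separated upward and 2 (5.26%, against 7.22%) downward. That median was -0.03 without control replicate 3, -0.04 without actinomycin D replicate 1 and 0.15 without control replicate 1. UTP4 and UTP15, subunits of the small-subunit processome, stood at 0.66 and 0.62, both with separate groups. The probe set of NPM1 was dim, at 3.24 to 3.88 after actinomycin D and 3.97 to 4.54 in control, although NPM1 mRNA is abundant in most cells.

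Regulators of the cell cycle and of cell death did not pass. CDKN1A, the gene of the cyclin-dependent kinase inhibitor p21, was at -0.06, with an interval of -0.31 to 0.18. MDM2, a ubiquitin ligase gene, was at 8.91, 9.06 and 9.28 after actinomycin D, against 8.61, 8.56 and 8.89 in control (0.40, adjusted p = 0.454), so each treated array lay above each control array, by little. PMAIP1, the gene of the death-promoting protein NOXA, was at 7.15, 7.28 and 8.02, against 8.24, 8.20 and 8.32 in control (-0.77), and its groups did not overlap. Among the 18 BCL2 family and inhibitor of apoptosis genes, with a median of -0.06, the survivin gene BIRC5 was at 9.18, 9.27 and 9.43, against 8.95, 8.74 and 8.74 in control (0.48, adjusted p = 0.133).

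P-TEFb releases paused RNA polymerase II, and HEXIM1 holds it inactive. HEXIM1 was at 7.53, 7.76 and 8.12 after actinomycin D, against 8.28, 8.41 and 8.64 in control (-0.64, SE 0.16, adjusted p = 0.183), with separate groups. CCNT1, the cyclin of P-TEFb, stood at -0.61 with overlap, and CDK12, a further elongation kinase gene, at 0.29 with separate groups. None of the 18 genes of this list passed, 4 separated downward (22.2%, against 7.22% of all genes) and 3 upward (16.7%, against 7.23%), and the median was -0.09. It was -0.05 without actinomycin D replicate 1 and -0.14 without replicate 2. Subunits of RNA polymerase II and Mediator had a median of -0.01 over 35 genes, with MED30 the most negative at -0.56. SR splicing factors and CLK kinases had a median of -0.004 over 13 genes, and SRSF4 and TRA2A stood at -0.38 and -0.51 with separate groups. Genes of mRNA decapping, deadenylation and decay had a median of -0.07 over 41, with DCP1B the one that passed, and LSM2 and TOB2 at -0.44 and -0.41. Of the long noncoding RNA and small nucleolar RNA host genes 2 were measured, TUG1 at 0.36 and MALAT1 at 0.03, and both overlapped.

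Several large gene families had medians slightly below 0. Of 50 replication-dependent histone genes 41 were below 0 and 20 (40%, against 7.22% of all genes) had separate groups, all lower, with none past the test. Their median by array was -0.14, -0.14 and -0.29 after actinomycin D and 0.07, 0.01 and -0.07 in control, and over the fit it was -0.16. H1-5, a linker histone gene, was at 11.02, 11.22 and 10.92, against 11.88, 12.01 and 11.35 in control (-0.69), and H3C1 stood at -0.64. These genes are near-identical copies that probe sets may not separate, so the members are not independent.

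Of 65 mitochondrial ribosomal protein genes 52 were below 0 (median -0.16), 8 separated downward (12.3%, against 7.22% of all genes) and 0 upward. Respiratory chain genes, taken by name and so including some assembly factors, were below 0 in 56 of 72 (median -0.12), and cytosolic ribosomal protein genes in 22 of 31 (median -0.11). None in these lists passed. The control arrays differed among themselves by as much, with mitochondrial ribosomal protein medians of 0.13, 0.09 and -0.23 relative to their mean, against -0.10, -0.14 and -0.23 on the actinomycin D arrays. Without control replicate 1 the medians of the 3 lists were -0.08, -0.05 and -0.04, and without control replicate 3 they were -0.24, -0.18 and -0.24. Aminoacyl-tRNA synthetase genes had a median of -0.12 over 18, which was -0.05 without control replicate 1, with 4 separated downward (22.2%, against 7.22% of all genes), KARS1 and AARS1 among them (-0.29 and -0.25). Without control replicate 1 KARS1 was at -0.15. Proteasome subunits stood at -0.01 over 24.

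ZNF zinc finger genes with three-digit names had a median close to 0, with more members separated upward than downward. Of 252, ZNF583 passed, 153 were above 0 with a median of 0.04, and 34 (13.5%, against 7.23% of all genes) separated upward while 13 (5.16%) separated downward. Without actinomycin D replicate 3 the median was 0.02. By array it was 0.033, 0.033 and 0.064 after actinomycin D and 0.008, 0.022 and -0.04 in control. ZNF287 was at 5.39, 5.46 and 5.96 after actinomycin D, against 5.09, 4.77 and 4.80 in control (0.72, adjusted p = 0.124), and ZNF616 stood at 0.74. DNA damage response, recombination and Fanconi anaemia genes had FANCF past the test, 6 of 26 separated upward (23.1%, against 7.23% of all genes) and 3 downward (11.5%, against 7.22%), and a median of 0.04. That median was 0.16 without actinomycin D replicate 1 and -0.01 without replicate 3. BRIP1, a helicase that partners BRCA1, was at 9.77, 9.94 and 10.23, against 9.43, 9.13 and 9.40 in control (0.66, adjusted p = 0.183), while the recombination gene RAD51B stood at -0.58, both with separate groups.

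Mitotic genes had a median of 0.05 over 25, and it was -0.06 without actinomycin D replicate 3 and 0.21 without replicate 1. By array it was -0.20, 0.03 and 0.22 on the actinomycin D arrays, so these differed more among themselves than from control. PLK1, a mitotic kinase gene, was at 11.40, 11.30 and 11.31, against 11.04, 10.97 and 10.90 in control (0.37, SE 0.09, adjusted p = 0.169). DNA replication and S phase genes had a median of -0.02 over 32, with GINS4 the most negative at -0.39, or -0.24 without actinomycin D replicate 1.

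The remaining lists held no gene past the test. List medians this close to 0 changed in size or sign when single arrays were left out, and nothing is read from them. NOTCH1 pathway genes, which drive this leukaemia type, had a median of -0.05 over 20, and the NOTCH target gene HES1 stood at -0.12 with overlapping groups. Genes of NF-kB subunits, inhibitors and targets had a median of -0.07 over 17. The arrays overlapped in all 17, where 7.23% of all genes separated upward and 7.22% downward. Among them were REL (-0.62), TNFAIP3 (-0.50) and the inhibitor gene NFKBIA (-0.25). Without control replicate 3 these were -0.37, -0.18 and -0.13. Without actinomycin D replicate 1 REL was -0.36 and TNFAIP3 -0.28, and without control replicate 1 TNFAIP3 was -0.83. Circadian clock genes had a median of -0.10 over 17, with PER1, a clock gene that also answers to acute signals, at 6.98, 6.92 and 6.97, against 7.31, 7.60 and 8.05 in control (-0.70, adjusted p = 0.126). BHLHE40, a repressor in the clock, stood at -0.83, or -0.46 without control replicate 3. ID genes and TGF-beta feedback genes had a median of -0.09 over 15, with ID2 and ID1 at -0.68 and -0.55 and SMURF2 at 0.41, and leaving out control replicate 3 or 1 put ID2 at -0.26 or -1.04. Cholesterol synthesis genes had a median of -0.04 over 18, with the sterol sensor gene INSIG1 at -0.41. TXNIP, which the cell raises when sugar is plentiful, was at 0.15 and its relative ARRDC3 at 0.63, both with overlap, and the 5 genes of their list had a median of 0.16. In all, 25 of the 30 lists with at least 5 measured genes had a median below 0 and 5 above, and 6 of all 31 lists had a member that passed. The count of medians below 0 depends on scaling and brightness. With ribosomal protein centring, which moved the median of all genes to 0.06, some of these medians turned positive and others stayed negative. Without the genes below the median level, the median of the genes left was -0.017. Nothing is read from the count.

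**Figure D4:**
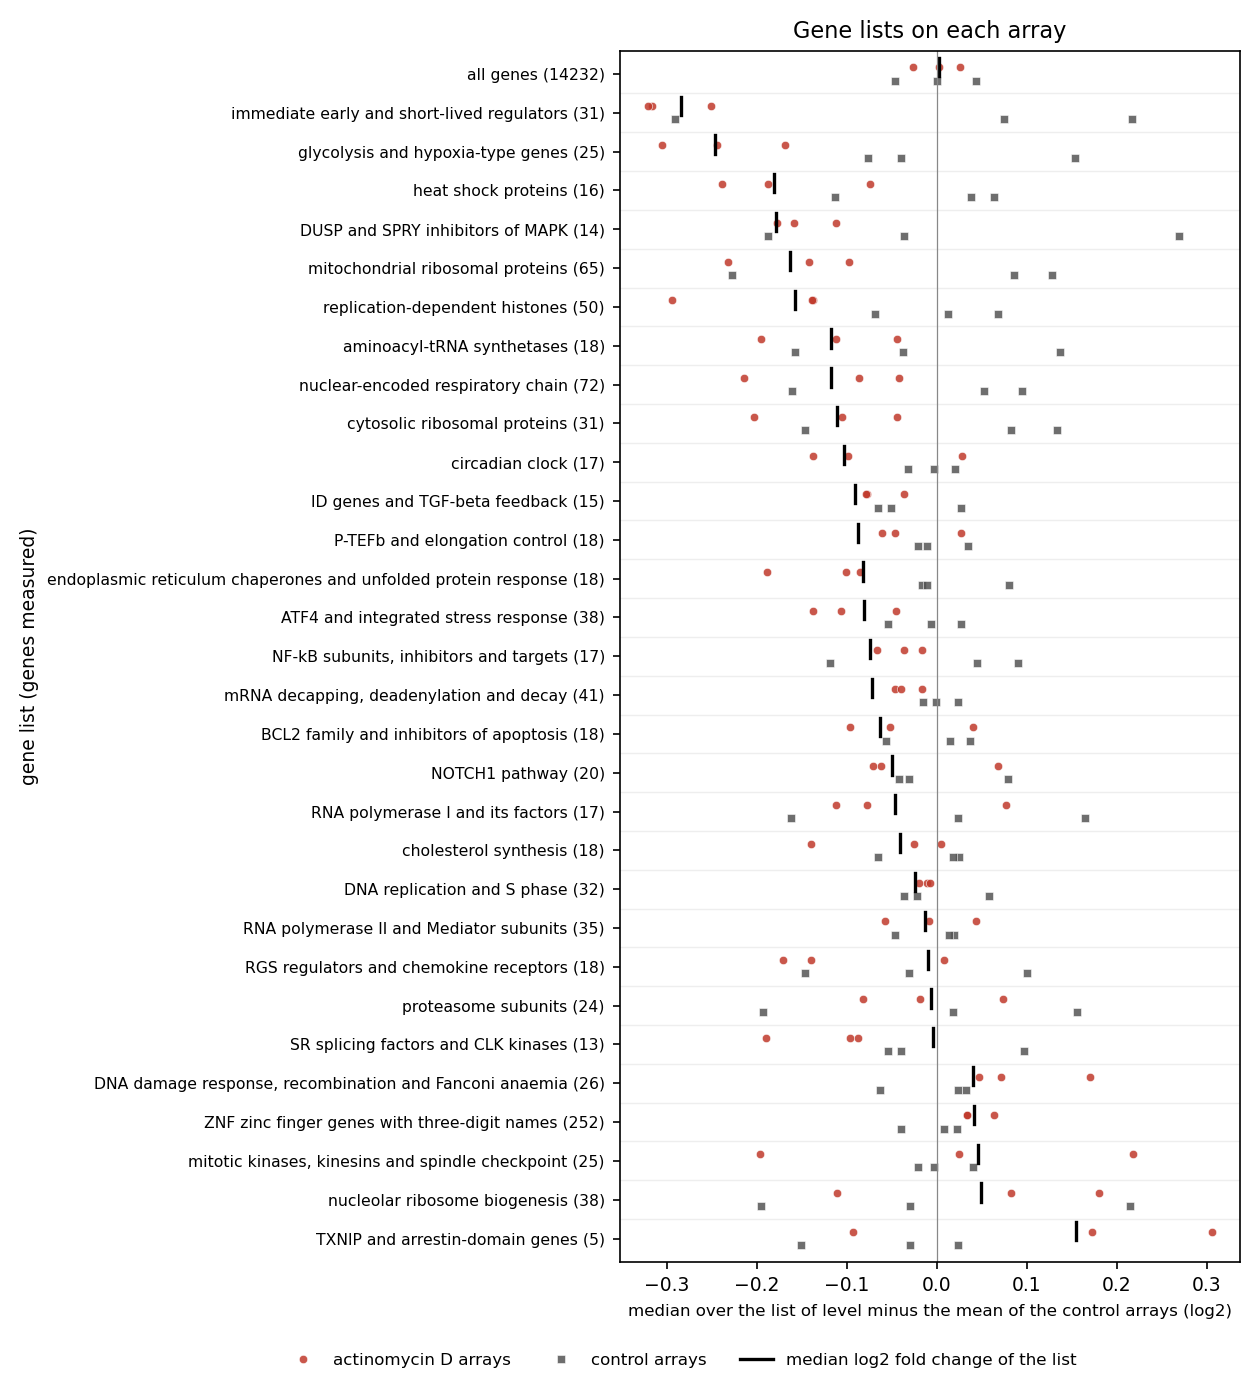
Median over each gene list of the level minus the mean of the control arrays, on the log2 scale (x axis), for the actinomycin D arrays (red circles) and control arrays (grey squares), with the list's median log2 fold change as a black bar and the number of genes measured in brackets (y axis). Glycolysis and hypoxia-type genes lie at -0.30 to -0.17 on the treated arrays and -0.08 to 0.15 in control, while control replicate 1 of the immediate early list, at -0.29, lies among its treated arrays.

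The direct contrasts asked where actinomycin D differed from the other treatments. Against AB61 0 of 14232 genes passed (0%) in limma, and 260 (1.83%) had an unadjusted p below 0.05. Against tubercidin 0 passed (0%), and 184 (1.29%) had an unadjusted p below 0.05. If no gene differed, a share near 0.05 would be expected below that threshold, and both shares are smaller. Against control the share was 9.39%. For a typical gene the 95% interval, not adjusted for the number of genes, reached 0.283 to either side. After adjustment over 14232 genes, differences well beyond that size can also be missed. A p that missed the threshold does not show that the treatments acted alike. The 3 treatments share the control arrays, so the levels are given side by side. FOSL2 averaged 7.91 after actinomycin D, 7.88 after AB61, 7.88 after tubercidin and 9.28 in control. CHRNA6 averaged 7.45 after actinomycin D, 7.20 after AB61, 7.36 after tubercidin and 6.25 in control. In 16 of the 17 genes all 9 treated arrays lay on the same side of the 3 control arrays, and the exception was CHAC1. The 17 genes were chosen for their difference from these control arrays, so the count is a description and nothing is read from it.

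CHAC1 was at 6.77, 6.62 and 7.14 after actinomycin D, 6.89, 7.27 and 7.31 after AB61, 7.99, 7.83 and 8.22 after tubercidin and 7.83, 8.14 and 8.66 in control. The tubercidin arrays overlapped the control arrays, and the actinomycin D arrays lay below both. Actinomycin D minus tubercidin was -1.17 (SE 0.20, 95% interval -1.61 to -0.74), which did not pass over all genes (adjusted p = 0.853). Actinomycin D minus AB61 was -0.31, with an interval of -0.75 to 0.12. DDIT3, the CHOP gene of the same pathway, chosen after its values were seen, had levels of 6.11, 5.63 and 5.91 after actinomycin D, 6.16, 6.93 and 6.50 after tubercidin and 6.24, 6.56 and 6.62 in control. Its difference from tubercidin was -0.65, with an interval of -1.09 to -0.21, and it did not pass either.

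By p, the other leading genes of the contrast with tubercidin were RPS13 (0.66), the noncoding LINC02893 (0.81) and SHISA2 (0.40) above it, and the germ cell gene GCNA (-0.69) and the opsin gene RRH (-0.91) below it. RRH was at 5.19, 5.09 and 4.92 after actinomycin D, against 6.55, 5.49 and 5.90 after tubercidin. In the contrast with AB61 they were LINC02893 (0.87), CPN1 (0.55) and CARHSP1, which encodes a protein that binds TNF mRNA (0.77), above it. CARHSP1 was at 9.82, 9.77 and 9.95 after actinomycin D, against 9.15, 9.05 and 9.04 after AB61, and averaged 10.07 in control. Below AB61 stood PRR23C (-0.80) and the olfactory receptor genes OR51G2 (-0.48) and OR10H3 (-0.70), all dim, with group means between 2.76 and 5.33.

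**Figure D5:**
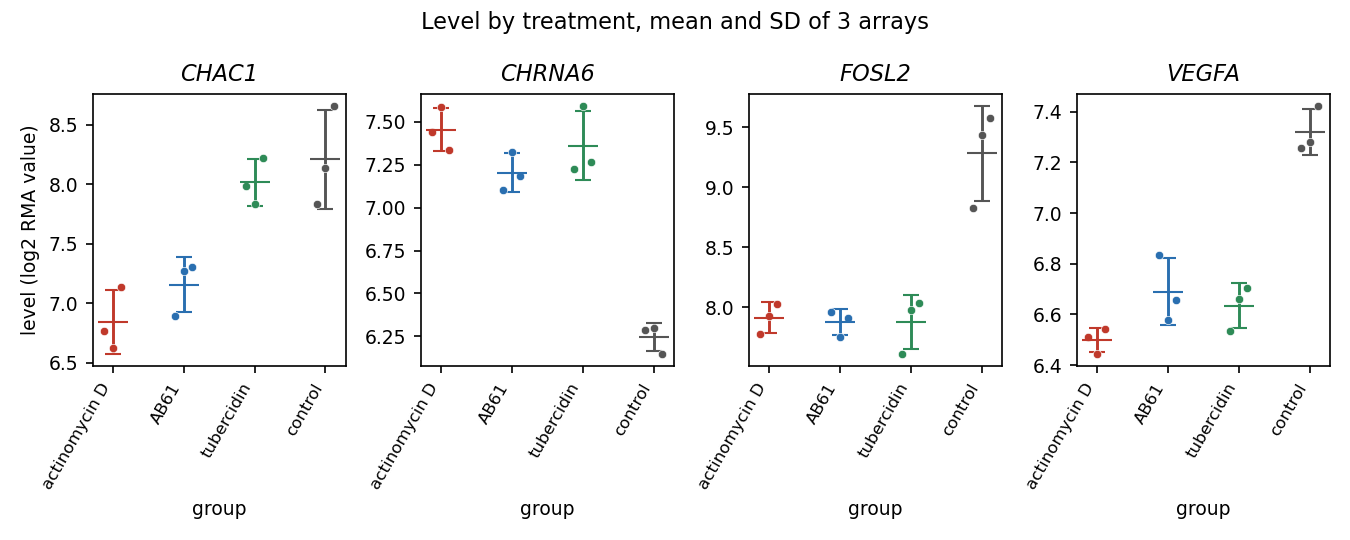
Log2 RMA level (y axis, not from 0) of CHAC1, CHRNA6, FOSL2 and VEGFA by group (x axis), with points for arrays, horizontal marks for means and bars for the SD of 3 arrays. CHAC1 averages 6.84 after actinomycin D and 8.01 after tubercidin, while the 3 treated groups of FOSL2 lie together at 7.88 to 7.91, below 9.28 in control.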

How the data were processed

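Total RNA extracted with Trizol was labelled as biotinylated cDNA from 200 ng and hybridised to Affymetrix whole-transcript arrays, per the labels' protocols. The deposited levels are log2 RMA values for 22011 probe sets, which the authors made with RMA and oligo, per the submitters' processing notes, which name no versions. The authors' deposited table of this comparison holds group means, log2 fold changes and unadjusted p-values, and its fold changes differed from those computed here by at most 7.29e-14. Of its genes, 1179 had a p-value below 0.05. The sources used here do not say which arrays the authors fitted together.

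Probe sets with exactly 1 gene symbol in the supplied annotation were used (14432), and of several for 1 gene (197 genes) the one with the highest mean of all 12 arrays. Probe sets with several symbols (2408) or none (5171) were tested only in an alternative. One mean per group was fitted to all 12 arrays in limma 3.58.1 under R 4.3.3 with eBayes (8 residual and 4.91 prior degrees of freedom), and two-sided p-values were adjusted by the Benjamini-Hochberg method over 14232 genes. The 3 arrays per group limit the precision: log2 fold changes had a standard error of 0.131 in the median gene. The p-values measure the spread between cultures described as biological replicates. The fit assumes 1 spread per gene in all 4 groups. In some genes the control SD was the larger, as in FOSL2 (0.40, against 0.13 after actinomycin D) and EGR1 (1.60 against 0.22). In others it was the smaller, as in SERPINB8 (0.08 against 0.22). Intervals of genes with a wide control spread may be too narrow. Dim genes were kept, as detection calls were not used, and levels of different probe sets are not comparable as amounts.

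Genes named are all that passed, the next 6 a direction by p, up to 4 members of each list with the largest change plus those that passed, 20 regulators, and the 3 genes a direction with the lowest p in each direct contrast. Exceptions are marked. The comparison, the 31 gene lists and the rules were chosen with earlier results of these data known. One further list is not reported here. Lists are described by counts and medians without a test. Motifs were searched in the RefSeq promoter sequences of GRCh38.p14. The model was tested on simulated data. Alternatives covered the arrays in the fit, the replicate number, dim genes, the variance model, array weights, scaling and the choice of probe set. Figures were drawn with matplotlib 3.10.9 under Python 3.11.15.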

Additional observations from a re-analysis of the deposited data

How the results depend on the processing

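The number of genes that passed after actinomycin D, 17 (9 higher, 8 lower), stayed within 1.5 times, in total and by direction, without the dimmest quartile (17) or the genes below the median level (13), with an intensity trend (14), with a robust trend (15) and with the mean of a gene's probe sets (17). It was 1 (1 higher, 0 lower) in a fit of the 6 arrays, 2 (1, 1) with arrays centred on their median, 7 (4, 3) after repeated quantile normalization, 11 (4, 7) with ribosomal protein centring, 2 (1, 1) over all probe sets, and 465 (263, 202) with gene-by-gene array weights, whose default estimation did not converge and was not used. Leaving out 1 of the 12 arrays gave 1 to 25 genes, 1 to 11 higher and 0 to 19 lower. The labels do not say that a replicate number marks a shared batch or day, and the deviations of equally numbered actinomycin D and control arrays correlated at 0.204, 0.046 and 0.305, so pairing was not assumed. Each of the 3 actinomycin D arrays correlated best with the control array of its own number, a hint of pairing from the data, though control replicate 2 correlated best with actinomycin D replicate 1 (0.112). With the replicate block 130 genes passed in all 12 arrays (66, 64) and 9 in the 6 arrays (2, 7). Of the 17 genes, 17 were kept with the block in 12 arrays and 4 in 6. The contrast with AB61 gave 8 genes with array weights, and that with tubercidin 1 with the replicate block in 12 arrays and 1 with ribosomal protein centring. Otherwise both stayed at 0. Directions turned for a few named genes, none past the test. POLR1A was -0.072 with array weights and -0.132 to 0.219 with arrays left out, and PRR23C 0.002 with ribosomal protein centring and -0.175 to 0.108 with arrays left out. MALAT1 ran from -0.082 to 0.161, MYC from -0.181 to 0.572, INSIG2 from -0.504 to 0.03, FARSA from -0.442 to 0.014 and HES1 from -0.258 to 0.04. The causes were not tested. Dim probe sets and 3 arrays per group limit what can be seen.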

Other observations

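Probe sets that carried several gene symbols or none entered above only through the alternative over all probe sets. In a fit of all 22011 probe sets, 0 of 2408 with several symbols and 0 of 5171 with none passed an adjusted p of 0.05 after actinomycin D, and 200 (8.31%) and 500 (9.67%) had an unadjusted limma p below 0.05, against 8.36% of the probe sets with 1 symbol. In the authors' deposited table, adjusting the unadjusted p-values by the Benjamini-Hochberg method left 8 genes over the genes with 1 symbol and 5 probe sets over all probe sets at 0.05.

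Beyond 1 log2 unit stood 4 genes not described above, chosen after their values were seen, and none passed. CD69, an early activation marker of lymphocytes, was at 7.64, 8.38 and 9.03 after actinomycin D, against 8.52, 9.88 and 10.24 in control (-1.20), with overlapping groups. ACKR3, an atypical receptor of CXCL12, the ligand of CXCR4, was at 6.82, 6.57 and 5.81, against 5.73, 5.25 and 4.77 in control (1.15, adjusted p = 0.248). TAS2R4, a bitter taste receptor gene, stood at 1.23 with separate groups. TUBA1B, an alpha-tubulin gene, stood at -1.05 through 1 treated array at 2.96, with its other treated arrays at 5.94 and 5.86 and control arrays at 5.52 to 6.24.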
